A study of Mus musculus with 6 samples.

Results

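The retinoid storage and metabolism genes examined here were Lrat, Stra6, Rdh10, Rdh11, Dhrs3, Aldh1a1, Aldh1a2, Crabp1 and Cyp26b1, 9 of the 24940 rows of a gene count table of primary mouse hepatic stellate cells. They were chosen by symbol, and they run from the uptake and storage of vitamin A to the breakdown of retinoic acid. The cells came from wild-type female C57BL/6JBomTac mice and were in culture for 2 days before the treatment began. The forskolin group was given 5 µM of forskolin, which switches on adenylyl cyclase, the enzyme that makes cyclic AMP, and the vehicle group dimethyl sulfoxide in equal volume. Both groups got new medium at 3 h and were lysed for RNA another 21 h on. The age of the mice is not given. Polyadenylated RNA of 3 libraries per group, lettered A to C, was sequenced. The labels do not say whether the letters stand for separate animals or cultures, so the spread behind each p-value may be no more than technical.

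Hepatic stellate cells hold most of the body's vitamin A, as retinyl esters in lipid droplets, and lose these droplets when they turn into matrix-producing cells. Retinol is esterified for storage, or oxidised in a reversible step to retinal and then in an irreversible step to retinoic acid, the ligand of the nuclear receptors RAR and RXR. Enzymes of the CYP26 family hydroxylate retinoic acid and end its action, and several genes of the pathway are themselves induced by retinoic acid.

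The forskolin libraries held 10890193 to 12954310 counts each and the vehicle libraries 13001358 to 15090262.5. Of 13357 genes with enough counts to be tested, 6668 passed the threshold, which is an adjusted p of 0.05 in edgeR's quasi-likelihood test. All 16 stellate cell markers passed the filter on low counts, of which 8 rose and 5 fell (81.2% called, against 49.9% of all genes tested). The highest in level were Col1a1 (1285 CPM with forskolin and 1540 CPM with vehicle, CPM being counts per 1000000 of the library's scaled total) and the intermediate filament gene Nes (977 CPM with forskolin and 812 CPM with vehicle). The largest fall was in Tcf21 (27.3 CPM with forskolin and 106 CPM with vehicle). The largest rise was in Hgf (401 CPM with forskolin and 198 CPM with vehicle). Gfap, often used as a marker of quiescent stellate cells, averaged 0.954 CPM with forskolin and 0.752 CPM with vehicle. Of 12 hepatocyte markers 9 were below 1 CPM, and the albumin gene Alb had 1 count in forskolin B and 0 in every other library. The summed hepatocyte list, 361 to 443 CPM with forskolin and 304 to 317 CPM with vehicle, was almost wholly Trf and Ass1. The macrophage list had 3 tested genes of 11, with Csf1r and Cd68 higher and Lyz2 lower (4.22 CPM with forskolin and 10.8 CPM with vehicle), and summed to 38.0 to 39.4 CPM with forskolin and 35.0 to 36.9 CPM with vehicle. Of 6 lymphocyte markers 0 were tested. Summed sinusoidal endothelial markers were at 104 to 109 CPM with forskolin and 241 to 249 CPM with vehicle, most of it Flt4 (79.7 CPM with forskolin and 195 CPM with vehicle). Of the 7 of 12 tested, 5 fell, Flt1 among them, Stab2 rose (2.53 CPM with forskolin and 0.955 CPM with vehicle), and Stab1 did not pass. Cholangiocyte markers summed to 392 to 428 CPM with forskolin and 138 to 153 CPM with vehicle, a difference carried by Spp1 (372 CPM with forskolin and 72.5 CPM with vehicle). Of the 4 of 7 tested, Spp1 and Sox9 rose, while Krt19 (35.1 CPM with forskolin and 71.3 CPM with vehicle) and Tm4sf4 fell, and Krt7 and Epcam were below 1 CPM. The part of these lists in the results below was not tested.

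Promoter sequences are shown because several genes of the pathway are targets of retinoic acid, and the proximal promoter is where its receptors bind in the best studied cases. The windows span 250 bases before to 50 after the start, come from RefSeq on GRCm38.p6 and are written 5′ to 3′ along the gene. Of the 9 members 8 had an entry, all but Rdh10. Capitals mark a direct repeat of the hexamer AGGTCA or its variants AGTTCA and GGGTCA and GGTTCA, in any pairing, with 5 bases between, the form bound by RAR and RXR. Shown are the promoters of the member with the smallest adjusted p, Cyp26b1, which fell, of Dhrs3, which rose, and of 2 retinoic acid targets known to carry the repeat, Rarb and Cyp26a1.
Cyp26b1 (chr6:84593761-84594060, minus strand): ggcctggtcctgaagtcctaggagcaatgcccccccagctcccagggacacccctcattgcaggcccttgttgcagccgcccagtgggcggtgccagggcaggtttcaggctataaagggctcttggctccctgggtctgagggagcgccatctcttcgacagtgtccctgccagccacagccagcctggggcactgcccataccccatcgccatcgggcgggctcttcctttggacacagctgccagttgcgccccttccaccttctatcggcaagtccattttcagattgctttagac
Dhrs3 (chr4:144892827-144893126, plus strand): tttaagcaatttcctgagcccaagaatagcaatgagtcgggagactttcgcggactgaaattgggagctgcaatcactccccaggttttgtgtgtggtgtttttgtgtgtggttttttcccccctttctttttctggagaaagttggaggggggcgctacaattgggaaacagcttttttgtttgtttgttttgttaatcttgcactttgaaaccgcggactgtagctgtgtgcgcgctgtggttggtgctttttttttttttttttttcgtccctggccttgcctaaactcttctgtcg
Rarb (chr14:16575427-16575726, minus strand): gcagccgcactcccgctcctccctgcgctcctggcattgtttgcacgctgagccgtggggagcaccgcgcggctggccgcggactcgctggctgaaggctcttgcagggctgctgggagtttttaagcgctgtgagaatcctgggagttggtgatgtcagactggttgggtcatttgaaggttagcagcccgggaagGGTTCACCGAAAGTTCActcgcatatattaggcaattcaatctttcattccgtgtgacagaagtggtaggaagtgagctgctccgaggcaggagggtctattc
Cyp26a1 (chr19:37697558-37697857, plus strand): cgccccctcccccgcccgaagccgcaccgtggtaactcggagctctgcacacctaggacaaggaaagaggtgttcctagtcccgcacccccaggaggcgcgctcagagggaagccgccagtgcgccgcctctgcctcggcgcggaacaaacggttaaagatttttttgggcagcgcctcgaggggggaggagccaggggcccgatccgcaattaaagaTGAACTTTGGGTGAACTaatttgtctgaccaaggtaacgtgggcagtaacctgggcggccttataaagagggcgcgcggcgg

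The Rarb repeat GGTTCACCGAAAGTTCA lies 53 to 37 bases before the start. That of Cyp26a1, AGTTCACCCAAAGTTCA, lies 32 to 16 bases before it on the opposite strand, so that its reverse complement stands in capitals above. Of 32851 promoter windows in the table, 0.0974% held such a repeat on either strand. None of the 8 member windows held it, nor a repeat with 1 or 2 bases between, which 0.222% and 0.268% of all windows held. The cyclic AMP response element TGACGTCA, in 1.79% of all windows, and its core TGACG, in 20.8% and also part of the full element, were likewise in none of the 8. Base composition differed widely among members, from 43.3% G and C in Aldh1a1 to 78.0% in Aldh1a2. Each member was searched at its deposited start only, and further listed starts of Stra6, Dhrs3, Rdh11 and Aldh1a1 were not searched. These windows cover the proximal promoter only.

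Of the 9 members, 8 passed the filter on low counts, and Stra6 did not. Cyp26b1 and Rdh11 fell and Aldh1a2, Dhrs3 and Rdh10 rose, while Lrat, Aldh1a1 and Crabp1 did not pass the threshold. These 5 of 8 stand beside 49.9% of all genes tested, 24.8% higher and 25.1% lower, so the number of changed members is not in itself a result about them. The median log2 fold change of the 8 was 0.09, against 0.01 over all genes tested. The CPM of the 2 groups did not overlap for the same 5 genes, as for 57.3% of all genes tested.

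**Figure D1:**
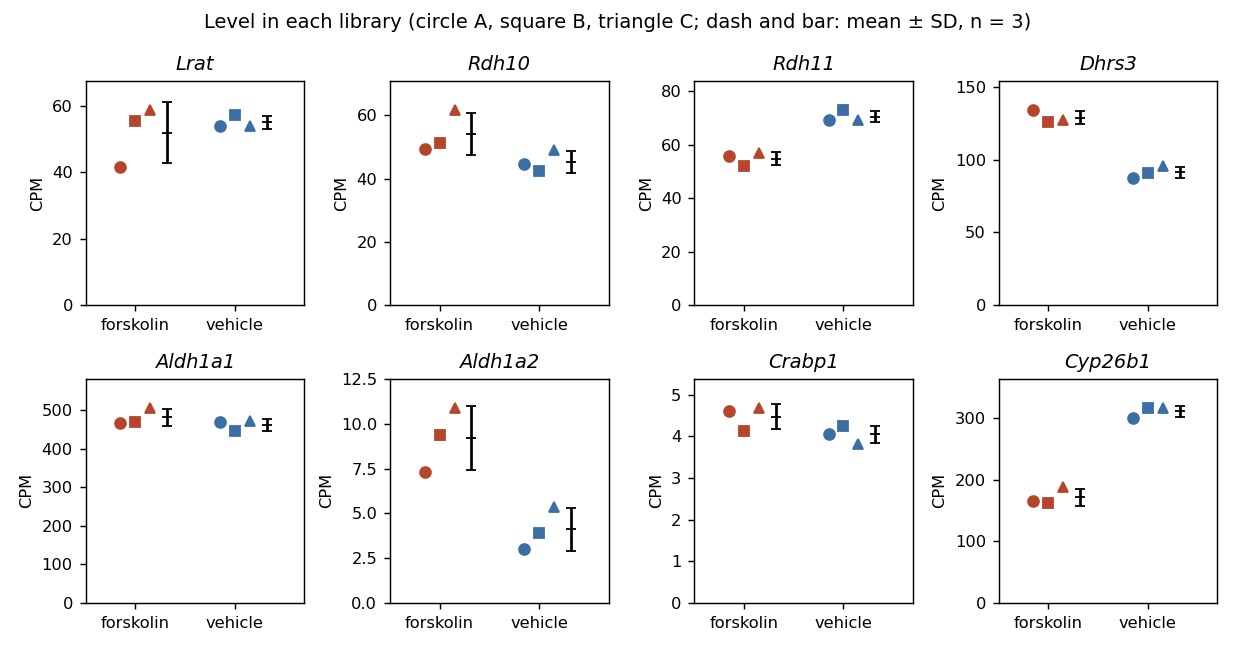
CPM of the 8 tested members (vertical axis, starting at 0) in each of the 3 forskolin libraries (red) and 3 vehicle libraries (blue), with the mean and SD beside each group. Cyp26b1 lies at 162 to 188 CPM with forskolin and 301 to 317 CPM with vehicle, while the groups of Lrat, Aldh1a1 and Crabp1 overlap.

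At the entry of the pathway, Stra6, which encodes the cell surface receptor of retinol-binding protein, was practically uncounted. It had 0, 1 and 1 counts in forskolin A, B and C and 0 in each vehicle library, where 3 counts over the group would be 0.0729 CPM. No fold is given, since both groups are under that floor. Stra6 (mm10, as for all members, chromosome 9, 58134075 to 58153997, plus strand) is known to be little expressed in liver.

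Lrat encodes lecithin retinol acyltransferase, which esterifies retinol for storage (chromosome 3, 82892582 to 82903974, minus strand). It had 41.6, 55.5 and 58.6 CPM in forskolin A, B and C, against 54.0, 57.1 and 53.8 CPM in vehicle A, B and C. Forskolin A was the lowest of all 6 libraries, and forskolin B and C lay within or just above the vehicle values. The log2 fold change was -0.08 (SE 0.0899, 95% interval -0.27 to 0.11, edgeR adjusted p = 0.487), so the interval leaves room for a modest change in either direction. Without forskolin A the value was 0.05, with an adjusted p of 0.503 in the same edgeR test. The level with forskolin, 51.9 ± 9.09 CPM, varied more than that with vehicle, 55.0 ± 1.86 CPM (SD, n = 3 each).

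Among the enzymes between retinol and retinal, the changes were opposed. Rdh10, the main enzyme that oxidises retinol to retinal (chromosome 1, 16105882 to 16132550, plus strand), had 49.4, 51.4 and 61.6 CPM in forskolin A, B and C and 44.6, 42.3 and 49.2 CPM in vehicle A, B and C. Forskolin A was only just above vehicle C. Rdh10 rose 1.2-fold (log2 fold change 0.26, SE 0.0808, edgeR adjusted p = 0.0129), the largest adjusted p among the 5 called members. It lost the call without forskolin C (log2 fold change 0.16, edgeR adjusted p = 0.0715) and without vehicle B (log2 fold change 0.21, edgeR adjusted p = 0.0891). It also lost the call without vehicle A, where the log2 fold change was 0.25 and the edgeR adjusted p just missed the threshold. With library size as a covariate the log2 fold change was 0.20 (edgeR adjusted p = 0.268), though library size itself differed between the groups without overlap.

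Dhrs3 encodes a retinal reductase that turns retinal back into retinol and is known to work in a complex with RDH10 (chromosome 4, 144893077 to 144928209, plus strand). It had 134, 126 and 127 CPM in forskolin A, B and C, against 87.7, 91.0 and 95.5 CPM in vehicle A, B and C. All forskolin libraries were above all vehicle libraries, and the gap between the groups was wider than the range within either. Dhrs3 rose 1.41-fold (log2 fold change 0.49, SE 0.0489, edgeR adjusted p = 1.35e-07).

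Rdh11, another dehydrogenase whose protein acts mainly as a retinal reductase (chromosome 12, 79174233 to 79191855, minus strand), had 55.6, 52.0 and 56.7 CPM in forskolin A, B and C and 69.3, 72.8 and 69.1 CPM in vehicle A, B and C. The groups were clearly apart. Rdh11 was 1.29-fold lower (log2 fold change -0.37, SE 0.0572, edgeR adjusted p = 3.55e-05). The 2 reductase genes therefore differed in direction, Dhrs3 being higher and Rdh11 lower after forskolin.

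The step from retinal to retinoic acid is carried out by the retinaldehyde dehydrogenases. Aldh1a1 (chromosome 19, 20492583 to 20643463, plus strand) was the most abundant member, with 468, 470 and 506 CPM in forskolin A, B and C and 470, 445 and 472 CPM in vehicle A, B and C. Its groups overlapped, with forskolin C highest. The log2 fold change was 0.06 (SE 0.0438, 95% interval -0.03 to 0.15, edgeR adjusted p = 0.284). With library size in place of scaling factors it passed, at 0.10 (edgeR adjusted p = 0.0434), while that scaling also shifted the median of all genes to 0.05. Aldh1a1 reached 2.23 counts per base of exon in its deepest library, against 0.0592 to 0.997 for the other tested members. How reads that start at the same base were counted is not given in the sources used here. Of its 50-base stretches, 96.9% were found in no other gene, the rest being shared with Aldh1a7. Aldh1a1 is also a hepatocyte gene. Of the 12 hepatocyte markers 3 were tested, of which Trf (220 CPM with forskolin and 176 CPM with vehicle) and Ass1 (175 CPM with forskolin and 129 CPM with vehicle) rose and Apoa2 (4.80 CPM with forskolin and 4.31 CPM with vehicle) did not pass, while Fgb and Serpina1a had 0 counts in all 6 libraries. Their part in the Aldh1a1 level was not tested.

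Aldh1a2 (chromosome 9, 71215789 to 71296243, plus strand), the dehydrogenase best known from the embryo, had the largest fold change of the members from a low level. It had 80.5, 124.5 and 133 counts in forskolin A, B and C, or 7.34, 9.41 and 10.9 CPM. In vehicle A, B and C it had 41, 58.5 and 68.5 counts, or 3.03, 3.92 and 5.39 CPM. Every forskolin library was above every vehicle library, with a spread within groups that was wide for both. Aldh1a2 rose 2.27-fold (log2 fold change 1.18, SE 0.199, 95% interval 0.76 to 1.60, edgeR adjusted p = 7.89e-05). Aldh1a2 is also a gene of mesothelial cells. Of 12 markers of mesothelium and portal fibroblasts 7 were tested. Thy1 (4.95 CPM with forskolin and 0.65 CPM with vehicle) and Cd34 (19.6 CPM with forskolin and 3.86 CPM with vehicle) rose. Fbln2 (493 CPM with forskolin and 581 CPM with vehicle) and Lrrn4 (0.507 CPM with forskolin and 3.89 CPM with vehicle) fell. The remaining 3 did not pass, among them Wt1 (1.03 CPM with forskolin and 1.67 CPM with vehicle). The summed list was at 512 to 541 CPM with forskolin and 585 to 602 CPM with vehicle, nearly all of it Fbln2. The other 5 were below 1 CPM in both groups, Gpm6a with 0 counts. Whether a change in other cells contributes to Aldh1a2 was not tested, and in bulk RNA fewer cells of a type and less RNA per cell cannot be told apart.

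Crabp1 encodes a cytosolic protein that binds retinoic acid and is thought to lead it to breakdown (chromosome 9, 54764748 to 54773110, plus strand). It had 4.60, 4.12 and 4.68 CPM in forskolin A, B and C and 4.06, 4.25 and 3.82 CPM in vehicle A, B and C. The groups overlapped through forskolin B. With 48.5 to 63.5 counts per library, the 95% interval of the log2 fold change ran from -0.25 to 0.51 (log2 fold change 0.13, edgeR adjusted p = 0.583), a range that includes 0 and the value of Rdh10.

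Cyp26b1, the hydroxylase that breaks down retinoic acid (chromosome 6, 84571414 to 84593810, minus strand), changed with the smallest adjusted p of all members. It had 165, 162 and 188 CPM in forskolin A, B and C, against 301, 317 and 317 CPM in vehicle A, B and C. The groups were far apart, the highest forskolin library being well below the lowest vehicle library. Cyp26b1 was 1.81-fold lower (log2 fold change -0.86, SE 0.0520, edgeR adjusted p = 1.58e-10) and ranked 246 of 13357 genes by p-value. By the size of the change it ranked 1184, and Aldh1a2 ranked 648. The related Cyp26a1, whose promoter is shown above, had 10 to 13.5 counts per forskolin library and 15 to 28 per vehicle library and did not pass (log2 fold change -0.64, edgeR adjusted p = 0.149).

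Levels were compared between genes per length, as CPM per kilobase of the deposited transcript's exons. Aldh1a1 came highest in both groups, at 162 ± 7.17 CPM per kb with forskolin and 156 ± 5.19 CPM per kb with vehicle (SD, n = 3 each), which was above 97.9% and 97.7% of tested genes. With forskolin Dhrs3 came next (51.8 ± 1.67 CPM per kb) and Cyp26b1 after it (36.2 ± 3.07 CPM per kb), while with vehicle Cyp26b1 (65.7 ± 1.89 CPM per kb) stood above Dhrs3 (36.8 ± 1.58 CPM per kb). Rdh10 and Rdh11 also changed places, with 23.7 ± 2.86 and 18.8 ± 0.846 CPM per kb after forskolin and 19.8 ± 1.53 and 24.1 ± 0.711 CPM per kb after vehicle. The deposited length of Rdh10 is 2287 bases, while sequences matched to its transcript held 3457 different 50-base stretches. Length and stretches also differed for Rdh11 (2919 bases, 3213 stretches) and Cyp26b1 (4742 bases, 4108 stretches). The levels per kb of Rdh10, Rdh11 and Cyp26b1 are therefore uncertain, and so is the place of Rdh10 beside Rdh11. Below Rdh10 and Rdh11, Lrat had 9.71 ± 1.7 CPM per kb with forskolin and 10.3 ± 0.347 CPM per kb with vehicle. Crabp1 (5.61 and 5.08 CPM per kb with forskolin and vehicle) and Aldh1a2 (4.10 and 1.83 CPM per kb with forskolin and vehicle) came last of the tested members. In this order Rdh10 and Rdh11 lay further apart than their SDs in both groups, as did Dhrs3 and Cyp26b1. The 9 genes together held 303 to 329 CPM per kb with forskolin and 314 to 327 CPM per kb with vehicle, overlapping ranges, although single members changed in opposite directions. Within that sum Aldh1a1 made up 51.7% to 52.2% with forskolin and 47.6% to 49.9% with vehicle, and Cyp26b1 11.3% to 12.1% with forskolin and 20.1% to 21.3% with vehicle.

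**Figure D2:**
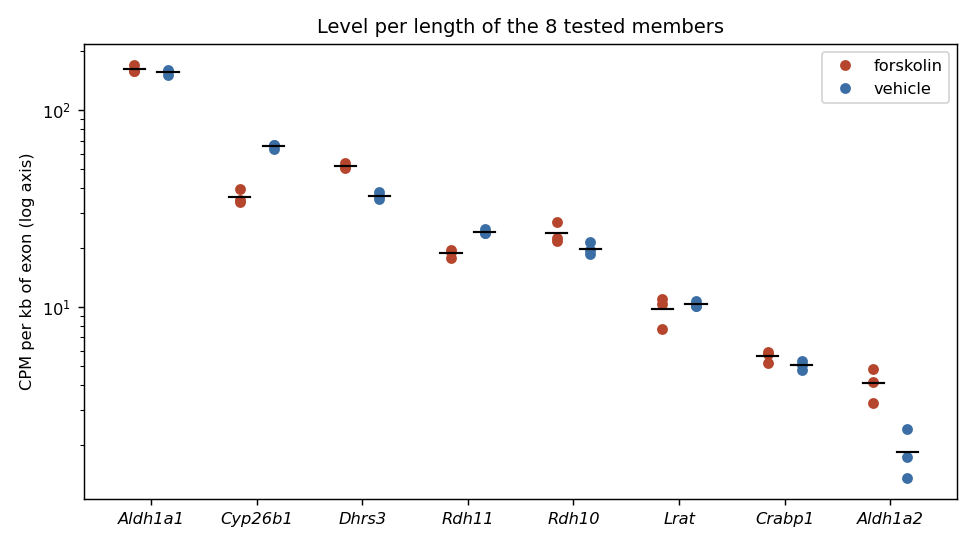
CPM per kilobase of exon (log axis) of the 8 tested members in the 3 forskolin libraries (red, left) and the 3 vehicle libraries (blue, right), with a dash at each mean; genes are ordered by the vehicle mean. On this per-length scale Cyp26b1 and Dhrs3 change places between the groups, and so do Rdh11 and Rdh10. The order within a group depends on the exon lengths used.

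A ratio of 2 genes within a library does not depend on how libraries are scaled. The 5 ratios given were chosen after the values were seen. Dhrs3 to Cyp26b1, per kilobase, was 1.55, 1.49 and 1.29 in forskolin A, B and C and 0.556, 0.549 and 0.576 in vehicle A, B and C. Rdh10 to Rdh11 was 1.13, 1.26 and 1.39 in forskolin A, B and C and 0.821, 0.742 and 0.909 in vehicle A, B and C. In both, each forskolin library lay above 1 and each vehicle library below it. The side of 1 depends on the exon lengths used, whereas the change between the groups does not. In CPM with forskolin, Rdh10 (54.1) and Rdh11 (54.8) were nearly level, and Dhrs3 (129) lay below Cyp26b1 (172). Aldh1a1, which makes retinoic acid, to Cyp26b1, which removes it, was 4.48 ± 0.181 with forskolin and 2.37 ± 0.125 with vehicle (SD, n = 3 each). Aldh1a1 to Aldh1a2 was 40.4 ± 6.97 with forskolin and 89.8 ± 25.8 with vehicle. For these 4 the two-sided exact permutation test gave p = 0.1, the smallest that 3 against 3 libraries allow, and 0.125 adjusted over the 5 ratios. The changes of the members were known when the ratios were picked, so these p-values lend the ratios no support. Where a member that rose without overlap stands over one that fell without overlap, the outcome was fixed in advance. Dhrs3 to Rdh10 was 2.21 ± 0.299 with forskolin and 1.86 ± 0.106 with vehicle and overlapped (exact permutation p = 0.2).

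Of 45 other genes of retinoid uptake, storage, metabolism and signalling, 27 were tested, of which 5 rose, 9 fell and 13 did not pass, with a median log2 fold change of -0.06. The 51.9% called is near the 49.9% of all genes tested, so the count is not a result about the list. With library size in place of scaling factors 8 rose and 6 fell. The largest drop was in Lpl, which encodes lipoprotein lipase, able to release retinol from retinyl esters in lipoproteins (92.2 ± 4.54 CPM with forskolin and 226 ± 5.69 CPM with vehicle, log2 fold change -1.30, edgeR adjusted p = 1.36e-13). Scarb1, the lipoprotein receptor that also takes up carotenoids, was at 152 CPM with forskolin and 199 CPM with vehicle (log2 fold change -0.39, edgeR adjusted p = 6.4e-06). Among esterifying enzymes Dgat1, which can esterify retinol besides making triglyceride, rose by 0.48 on the log2 scale, to 35.3 CPM, against 25.4 CPM with vehicle (edgeR adjusted p = 0.000184), while Dgat2 was at 33.7 CPM with forskolin and 32.4 CPM with vehicle and did not pass. The lipase gene Pnpla2, whose product can hydrolyse retinyl esters, did not pass either (62.2 CPM with forskolin and 59.0 CPM with vehicle).

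Further enzyme genes of retinoid metabolism outside the 9 members moved unevenly. Bco1, which encodes the oxygenase that cleaves beta-carotene into retinal, had more counts than any member, 610 ± 39.6 CPM with forskolin and 635 ± 23.9 CPM with vehicle, and did not pass (log2 fold change -0.06, edgeR adjusted p = 0.349). Cyp1b1, a cytochrome able to oxidise retinol, rose by 0.78 on the log2 scale, to 128 ± 6.81 CPM, against 74.6 ± 4.43 CPM with vehicle (edgeR adjusted p = 1.38e-09). Rdh14, a retinol dehydrogenase family gene, rose by 0.56 on the log2 scale (20.2 CPM with forskolin and 13.8 CPM with vehicle, edgeR adjusted p = 0.000151). Rdh9 had 2.77 CPM with forskolin and 0.965 CPM with vehicle (log2 fold change 1.5, edgeR adjusted p = 0.000201), but 7.66% of its 50-base stretches were found in no other gene, so its counts are uncertain. Rdh13, Retsat and Adh5 did not pass, and Dhrs4 was at 38.7 CPM with forskolin and 44.4 CPM with vehicle, a call lost under 6 of 15 alternatives.

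Among binding proteins and receptors, Fabp5, which encodes a carrier of fatty acids and retinoic acid, fell by 0.27 on the log2 scale (edgeR adjusted p = 0.00527), with 78.9% of its stretches unique. Of the receptor genes Rarb fell by 0.40 on the log2 scale (223 CPM with forskolin and 295 CPM with vehicle, edgeR adjusted p = 1.49e-07) and Rxra fell by 0.20 (log2, 192 CPM with forskolin and 220 CPM with vehicle, edgeR adjusted p = 0.00199). Rarb shares 57.7% of its exon bases with Top2b on the opposite strand, and the labels do not state whether the libraries kept strand. Reads of the 2 genes may therefore not be told apart in that part, so the Rarb counts are uncertain. Rara fell by 0.21 on the log2 scale (edgeR adjusted p = 0.0374), a call lost under 7 of 15 alternatives, whereas Rarg (83.3 CPM with forskolin and 84.6 CPM with vehicle) and Rxrb (45.5 CPM with forskolin and 40.7 CPM with vehicle) did not pass.

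**Figure D3:**
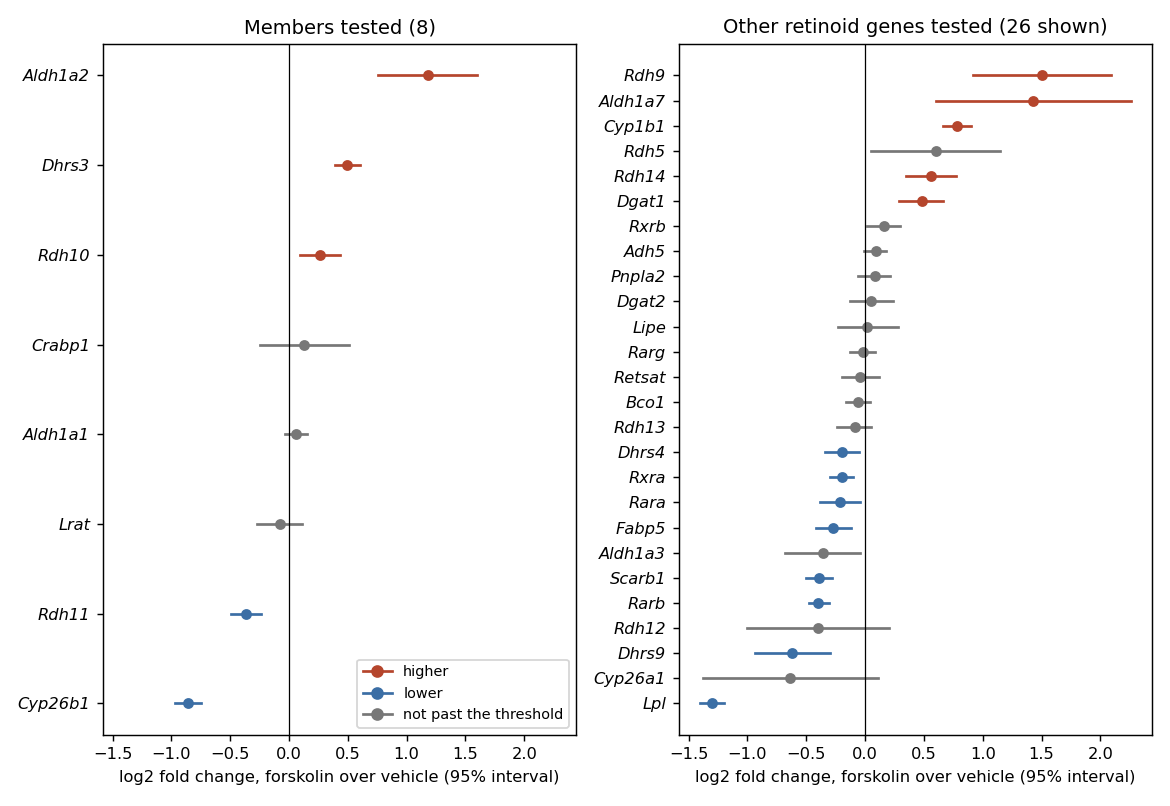
Log2 fold change of forskolin over vehicle (horizontal axis) with its 95% interval for the 8 tested members (left) and 26 of the 27 other retinoid genes tested (right), red where higher, blue where lower and grey where the edgeR adjusted p was not under 0.05. Aldh1a2 (1.18) and Cyp26b1 (-0.86) mark the ends of the member range, and Lpl has the lowest value of the right panel (-1.30).

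Genes known to be induced by retinoic acid in some tissue, 17 in a list that overlaps those above, were described likewise. Of 14 tested, 3 rose and 5 fell (3 and 3 with library size in place of scaling factors), with a median log2 fold change of -0.17. The 57.1% called stands beside 49.9% of all genes tested, 24.8% higher and 25.1% lower, and nothing particular to the list is read from it. Hoxa5, a homeobox gene of body patterning, rose to 140 ± 7.36 CPM with forskolin, against 53.1 ± 1.78 CPM with vehicle (log2 fold change 1.40, edgeR adjusted p = 2.93e-13). Tgm2, the tissue transglutaminase gene, fell to 601 ± 29.3 CPM with forskolin, against 773 ± 14.6 CPM with vehicle (log2 fold change -0.36, edgeR adjusted p = 1.57e-06). Genes on the opposite strand overlap 22.6% of the exon bases of Tgm2, so its counts are uncertain as those of Rarb are. The rest of the 5 with the smallest adjusted p were Cyp26b1 and Rarb, which fell, and Dhrs3, which rose.

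The tested genes whose centred log2 CPM over the 6 libraries lay nearest to a changed member were found by Euclidean distance among 13357 genes. Nearest to Cyp26b1 were Des, the intermediate filament gene of stellate cells (distance 0.0714, 182 CPM with forskolin and 323 CPM with vehicle), and Arap1 (0.0975). Nearest to Dhrs3 were the nucleotidase gene Entpd5 (0.0494) and BC003965 (0.0797), to Rdh11 Oraov1 (0.0594) and Ccdc22 (0.0611, with 21.2% of its 50-base stretches unique, so uncertain), and to Rdh10 Alkbh3 (0.0811) and Irx3 (0.0923). Aldh1a2 had no neighbour as close, Gtdc1 lying at 0.276 and Sbsn at 0.343. Over 6 libraries in 2 groups, such likeness mostly repeats the size of the group difference. Alkbh3 (89.6% of 50-base stretches unique) and Sbsn (86.7% unique) also shared sequence with other genes. For Oraov1 no sequence was found under that symbol, so its uniqueness was not checked.

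**Figure D4:**
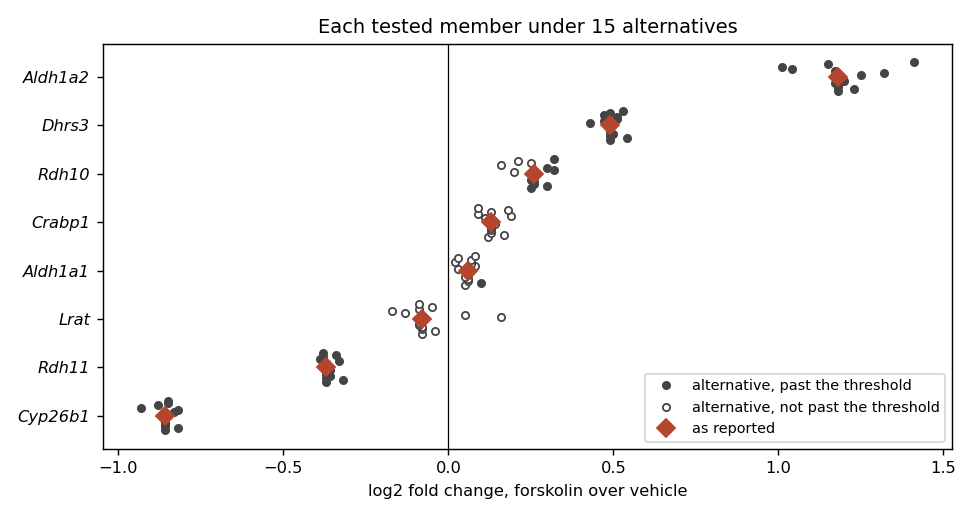
Log2 fold change of forskolin over vehicle (horizontal axis) of each tested member as reported (red diamonds) and under 15 alternative analyses (circles, filled where the adjusted p was under 0.05). Cyp26b1, Rdh11, Dhrs3 and Aldh1a2 keep their call in all 15, Rdh10 loses it in 4, and Lrat lies on both sides of 0.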

How the data were processed

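The authors counted reads over exons and left these estimated counts unnormalized, in 1 deposited table with 24940 rows of 1 RefSeq transcript each and its exon length. STAR, HOMER and the mm10 build are named in the submitters' processing notes, without versions or settings. The deposited values are multiples of 0.5, of which 31.8% are not whole, and they were rounded to whole numbers for tests. Exon lengths are those of the deposited table, in bases.

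With edgeR 4.0.16 in R 4.3.3, filterByExpr (minimum count 10, minimum total 15) kept 13357 genes holding 99.9% of counts, and TMM factors scaled libraries. Group was the only term of the quasi-likelihood test, two-sided, with Benjamini-Hochberg adjustment over all genes tested and a threshold of 0.05. CPM use the deposited values and TMM-scaled totals. SE and 95% intervals come from the F statistic. Fits were tested on simulated data. Alternatives used limma 3.58.1 and DESeq2 1.42.0, and permutation tests scipy 1.17.1. Stretches of 50 bases and exon overlaps were taken from GENCODE M21 on GRCm38. The members and lists were chosen with earlier results of these data known. Genes named besides the members were, by rule, the 8 other retinoid genes with the smallest adjusted p and those with at least 20 CPM, the 5 retinoic acid response genes with the smallest adjusted p, the 2 highest markers per list and the 2 nearest patterns per changed member. Any other gene was named after its values were seen. A gene that the rule names is not reported here, but the list counts include it.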

Additional observations from a re-analysis of the deposited data

How the results depend on the processing

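Each result was recomputed under 15 alternatives. The calls of Cyp26b1, Rdh11, Dhrs3 and Aldh1a2 held in all 15, with log2 fold changes of -0.93 to -0.82, -0.39 to -0.32, 0.43 to 0.54 and 1.01 to 1.41. Rdh10 lost its call in 4 (adjusted p up to 0.268), Aldh1a1 gained 1 with library size in place of TMM factors (0.10), and Lrat, never called, ranged from -0.17 to 0.16. Between 4 and 6 members passed. With library size as a covariate, 4297 of all genes and 8 of the other retinoid genes passed, against 6668 and 14, and the cause was not tested. Every forskolin library was smaller than every vehicle library (at most 12954310 and at least 13001358 counts). That fit therefore cannot fully separate library size from treatment. Of the 14 calls among the other retinoid genes, 8 held in all 15 alternatives. Leaving out 1 library at a time gave 5640 to 6800 genes, 4 to 5 members, 11 to 15 other retinoid genes and 6 to 10 retinoic acid response genes, with a member median of 0.05 to 0.13. Whether the letters A to C pair libraries is not stated and was not settled here. Deviations of same-letter libraries correlated at only 0.022 to 0.036 across genes, yet each library correlated best with its own letter. With the replicate block 6675 genes and 5 members passed. The fewest counts stood behind Crabp1 (48.5 to 63.5 per library) and Aldh1a2 (41 to 68.5 per vehicle library), which had the widest intervals of the tested members.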

Other observations

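Several retinoid genes lie beside a relative on the same chromosome, and the neighbours differed in level. The lower coordinate of Aldh1a7 lies 200 kb above that of Aldh1a1 on chromosome 19. Aldh1a7 had 12.5 to 15 counts per forskolin library and 5 to 6.5 per vehicle library (log2 fold change 1.43, edgeR adjusted p = 0.00576). Aldh1a1 had 5134 to 6637 counts per library. As 92.5% of the 50-base stretches of Aldh1a7 are unique and the rest match Aldh1a1, its counts are uncertain. Rdh12, a photoreceptor retinal reductase gene whose lower coordinate lies 34.7 kb above that of Rdh11 on chromosome 12, was at 1.71 CPM with forskolin and 2.30 CPM with vehicle and did not pass (edgeR adjusted p = 0.257). Cyp26c1, next to Cyp26a1 on chromosome 19, had 0.5 to 6 counts per forskolin library and 0 to 4 per vehicle library. Bco2, which encodes the other carotenoid-cleaving oxygenase, had 5, 4 and 1 counts in forskolin A, B and C and 0 in each vehicle library, too few to be tested.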
